A study of Homo sapiens with 10 samples.

Results

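The transcriptome data of HCT116 cells, a poorly differentiated human colorectal carcinoma line, were read for 10 genes grouped here under colonic identity. They are the adhesion genes CEACAM1, CEACAM5 and CEACAM6, the mucins MUC1 and MUC13, and the trefoil factors TFF1 and TFF3. The mucin chaperone AGR2 and the homeobox factors CDX1 and CDX2 complete the group. Its name is a label, and not all 10 genes are specific to the colon. They were chosen by name, and all 10 were found by their Ensembl identifier among the 58050 identifiers of the deposited table. RNA of 5 cultures of HCT116-WT cells was compared with RNA of 5 cultures of HCT116-CD276KO cells, in which the immune checkpoint family member CD276 had been disrupted with Cas9 and a guide RNA. All HCT116-CD276KO cultures were grown from a single cell clone. An effect of CD276 loss therefore cannot be told apart from a difference of this clone. The labels describe a scrambled guide as a control but do not say whether the HCT116-WT cultures received it. Expression is given in TPM, a unit that takes account of transcript length and sums to one fixed total in every library, so that levels can be set side by side between genes.

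CDX2 and its relative CDX1 are intestine-specific homeobox transcription factors that establish and keep intestinal identity. Intestinal epithelium further relies on the nuclear receptors HNF4A and HNF4G, and its cells carry membrane-bound mucins and CEACAM glycoproteins on the apical surface, while goblet cells secrete gel-forming mucins together with trefoil peptides. CEACAM5, the carcinoembryonic antigen, is a serum marker of colorectal cancer. AGR2 is a protein disulfide isomerase of the endoplasmic reticulum that goblet cells need to fold mucins.

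On hg38, CEACAM5 lies on chromosome 19 from 41708585 to 41730433, CEACAM6 follows from 41750977 to 41772211, and CEACAM1 lies further along the same arm from 42507304 to 42561234 on the minus strand. CDX2 lies on chromosome 13 from 27960918 to 27969315 and CDX1 on chromosome 5 from 150166778 to 150184558. MUC1 lies on chromosome 1 from 155185824 to 155192916 and MUC13 on chromosome 3 from 124905442 to 124953819. TFF3 and TFF1 lie on chromosome 21, from 42311667 to 42315409 and from 42362282 to 42366535, with TFF2 between them, and AGR2 lies on chromosome 7 from 16791811 to 16833433.

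The 250 bases upstream of a RefSeq transcription start are shown for CDX2, the member with the highest level. They are also shown for the 3 CEACAM genes, whose sequences there resemble each other, and for MUC13, the member whose groups did not overlap. They were taken from RefSeq on GRCh38.p14, where 7 of the 10 genes had an entry. TFF1, TFF3 and CDX1 had none. The gene spans given above came from GENCODE, and the RefSeq start was not always at the end of the span. By these spans, the bases shown for CEACAM6, CEACAM1 and MUC13 lie inside the gene. The same holds for AGR2, whose bases are not shown. Those of CEACAM5 run past the start of its span, and those of CDX2 lie directly upstream. The windows are chr13:27969316-27969565 on the minus strand for CDX2, chr19:41708376-41708625 and chr19:41755280-41755529 on the plus strand for CEACAM5 and CEACAM6, chr19:42528482-42528731 on the minus strand for CEACAM1 and chr3:124934752-124935001 on the minus strand for MUC13. Each is written 5′ to 3′ along its gene, and capitals mark a CDX core (TTTATG or TTTATA) or an HNF4 core (CAAAGT) on either strand.
CDX2: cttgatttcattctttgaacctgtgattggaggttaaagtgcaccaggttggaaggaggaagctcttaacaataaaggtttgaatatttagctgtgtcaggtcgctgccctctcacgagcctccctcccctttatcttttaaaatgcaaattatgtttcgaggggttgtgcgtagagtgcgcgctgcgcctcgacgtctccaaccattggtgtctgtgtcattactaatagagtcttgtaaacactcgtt
CEACAM5: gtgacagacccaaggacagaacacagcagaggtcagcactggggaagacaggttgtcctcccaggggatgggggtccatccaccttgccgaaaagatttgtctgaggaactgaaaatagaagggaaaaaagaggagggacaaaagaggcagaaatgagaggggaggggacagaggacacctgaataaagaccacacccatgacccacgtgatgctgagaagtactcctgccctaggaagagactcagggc
CEACAM6: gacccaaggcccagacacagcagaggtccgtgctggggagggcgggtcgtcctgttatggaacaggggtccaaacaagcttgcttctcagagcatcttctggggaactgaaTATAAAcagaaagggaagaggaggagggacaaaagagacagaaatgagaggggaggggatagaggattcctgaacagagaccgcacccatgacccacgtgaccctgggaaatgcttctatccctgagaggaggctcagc
CEACAM1: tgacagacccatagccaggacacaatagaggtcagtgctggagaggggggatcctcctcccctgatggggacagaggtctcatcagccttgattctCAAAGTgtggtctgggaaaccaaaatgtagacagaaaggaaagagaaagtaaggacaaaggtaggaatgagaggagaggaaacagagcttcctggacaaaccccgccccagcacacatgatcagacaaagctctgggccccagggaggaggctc
MUC13: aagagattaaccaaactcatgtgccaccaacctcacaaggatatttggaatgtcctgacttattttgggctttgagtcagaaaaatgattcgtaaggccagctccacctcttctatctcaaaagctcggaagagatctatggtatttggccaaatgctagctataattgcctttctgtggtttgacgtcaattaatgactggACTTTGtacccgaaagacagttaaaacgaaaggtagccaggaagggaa

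The CEACAM windows were alike in sequence. CEACAM5 and CEACAM6 were identical at 189 of 242 aligned bases (78.1%), CEACAM6 and CEACAM1 at 177 of 238 (74.4%) and CEACAM5 and CEACAM1 at 170 of 236 (72.0%). A CDX core stood in 1 position each in the windows of CEACAM6, MUC1 and AGR2 and was not found in those of CDX2, CEACAM5, CEACAM1 and MUC13, while 18.2% of 35116 RefSeq windows of the same length held one. TTTATA read on the other strand is TATAAA, the TATA box, and the matches in CEACAM6 and MUC1 had these letters. The HNF4 core, added after the values were seen, was found in the windows of MUC13 and CEACAM1 and in 10.3% of all windows. These matches are letters in a window and were not tested for binding.

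HCT116 cells held little RNA of most of these genes. Only CDX2 and MUC1 reached the mean of 1 TPM over the 10 libraries that was required for a test, and CEACAM1 and MUC13 lay between 0.1 and 1 TPM. CEACAM5 and CEACAM6 were listed at 0.01 TPM, the smallest step of the table, in 1 library each and at 0 in the other 9. TFF1, TFF3, AGR2 and CDX1 were listed at 0 in all 10 libraries. A value of 0 in TPM gives no limit for the RNA that may be present, as the number of reads is not kept. None of 12 housekeeping genes was at 0 in any library and their lowest value was 19.5 TPM. Genes at such a level do not show how well RNA near 0 was detected. CEACAM5 and CEACAM6 share long stretches of near-identical sequence, and reads of 1 may be assigned to the other.

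In HCT116-WT cells the order of the detected genes was CDX2, MUC1, CEACAM1 and MUC13. The lowest CDX2 library lay above the highest MUC1 library, whereas MUC1 and CEACAM1, and CEACAM1 and MUC13, overlapped in their TPM. In HCT116-CD276KO cells the order was the same and none of these neighbours overlapped. Among the 13581 genes tested, 34.9% had a lower mean TPM than CDX2 in HCT116-WT cells, and 2.65% had a lower mean than MUC1.

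To ask whether the loss of CD276 came with a change of these genes, the groups were compared with limma on log2(TPM + 1) over all genes tested, with Benjamini-Hochberg adjustment. A gene was called at an adjusted p-value under 0.05, a limit that 662 genes or 4.87% of those tested reached, 4.09% as lower and 0.781% as higher in HCT116-CD276KO cells. CD276 itself fell, with a mean of 45.3 ± 6.17 TPM (SD, n = 5) in HCT116-WT and of 5.46 ± 1.21 TPM (SD, n = 5) in HCT116-CD276KO cells. In RNA of whole cultures, fewer cells that express a gene and less of its RNA per cell cannot be told apart. Of the 10 colonic genes 2 were tested, and by limma 0 were called, with 0 at an unadjusted p-value under 0.05, a limit that 21.9% of all genes tested passed.

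CDX2 stood at 8.19, 8.71, 12.2, 8.68 and 6.78 TPM in the HCT116-WT cultures, in order of replicate number, and at 9.31, 9.89, 8.71, 10.7 and 7.76 TPM in the HCT116-CD276KO cultures. Both the highest and the lowest of the 10 values were HCT116-WT libraries, and the HCT116-CD276KO values lay between them. Mean TPM was 8.91 ± 2.00 (SD, n = 5) in HCT116-WT and 9.27 ± 1.12 (SD, n = 5) in HCT116-CD276KO cells. The log2 fold change on log2(TPM + 1) was 0.07 ± 0.13 (SE) with a 95% interval from -0.22 to 0.36, and limma gave an adjusted p of 0.786. By exact permutation, two-sided, p was 0.683. The interval leaves room for a level between 0.857 and 1.28 times that of HCT116-WT cells on the scale of TPM + 1. Without HCT116-WT replicate 5, the lowest library, the log2 fold change was -0.02.

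MUC1, a membrane-bound mucin of many glandular epithelia, stood at 1.06, 1.35, 0.82, 1.51 and 1.25 TPM in the HCT116-WT cultures and at 1.3, 1.4, 0.89, 1.02 and 0.87 TPM in the HCT116-CD276KO cultures, again by replicate number. The groups overlapped over most of their range. Its log2 fold change was -0.07 ± 0.13 (SE) with a 95% interval from -0.35 to 0.21, and limma gave an adjusted p of 0.777. By exact permutation p was 0.556.

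MUC13, a transmembrane mucin of the apical membrane of intestinal cells, was low in HCT116-WT cells and lower still in HCT116-CD276KO cells. It stood at 0.15, 0.23, 0.15, 0.1 and 0.52 TPM in the HCT116-WT cultures and at 0.07, 0, 0.01, 0.07 and 0.01 TPM in the HCT116-CD276KO cultures. The groups did not overlap, and the mean of 0.032 TPM in HCT116-CD276KO cells was 13.9% of the 0.23 TPM in HCT116-WT cells. Its level was under the filter, so it was not tested with the others. With all genes above 0 TPM in the fit, its adjusted p-value from limma was 0.199, against 1.76% of genes called there. Of the 5884 genes with a mean from 0.1 to under 1 TPM, 2.5% were lower without overlap. Values this close to the step of 0.01 TPM are coarse, and the 0.52 TPM of HCT116-WT replicate 5 stood above the other 4 libraries of its group.

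CEACAM1, an adhesion molecule of epithelial and immune cells, stood at 1.01, 0.44, 0.45, 0.3 and 0.38 TPM in the HCT116-WT cultures and at 0.45, 0.37, 0.11, 0.47 and 0.25 TPM in the HCT116-CD276KO cultures. Mean TPM was 0.516 ± 0.283 (SD, n = 5) against 0.330 ± 0.150 (SD, n = 5). HCT116-WT replicate 1 stood apart, and without it the remaining HCT116-WT values fell inside the range of the HCT116-CD276KO values. With all genes above 0 TPM in the fit its adjusted p-value from limma was 0.582.

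The low levels of the CEACAM and trefoil genes were not shared by all of their neighbours. Within 250 kb of the CEACAM genes lay 25 other protein-coding genes, of which 12 were tested and 8 were listed at 0 in every library. The 8 included CEACAM3, CEACAM4, CEACAM7 and CEACAM8, which belong to the same family, and ENSG00000267881, which overlaps CEACAM5 and CEACAM6 in position. Among the 12, RPS19, a ribosomal protein gene, stood at a mean of 2170 TPM in HCT116-WT cells. None of the 12 was called by limma, and 2 (ERFL and CIC) had an unadjusted p-value under 0.05, against 21.9% of all genes tested. The log2 fold changes of the 12 ranged from -0.49 to 0.22, around a median of 0.00. Near TFF1 and TFF3, 1 of 7 neighbours was tested, the phosphate antiporter gene SLC37A1, at -0.32 on the log2 scale (limma adjusted p 0.147).

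Over the 10 libraries, the genes whose log2(TPM + 1) values were most like those of CDX2 were COQ10A, with a Pearson correlation of 0.948, SYCE3 with 0.901 and OXLD1 with 0.893. The log2 fold changes of these 3 genes were -0.01, 0.27 and 0.00, with adjusted p-values from limma of 0.421 or more. For MUC1 the 3 highest correlations were those of the long non-coding RNAs ENSG00000238178 (0.869), SBF2-AS1 (0.864) and LINC00973 (0.863). They are the highest of 13580 correlations each and are given as a description.

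To place the 10 genes among other genes of their families and of the intestine, 5 lists were read with them. These were the CEACAM family, transmembrane mucins, goblet cell secretion with gel-forming mucins and trefoil factors, intestinal transcription factors, and colonocyte and enterocyte differentiation genes. Not all are genes of the colon, and the goblet cell list holds MUC6 and TFF2, which were also read as gastric markers. The 5 lists held 86 genes, the 10 included. Of these, 30 were listed at 0 in every library and 16 were tested. The levels differed by list: 13 of the 22 transcription factors reached 1 TPM, but 0 of the 12 CEACAM genes, 0 of the 21 goblet cell genes, 2 of the 10 transmembrane mucins and 1 of the 21 differentiation genes did. In the CEACAM family CEACAM19 had the highest mean over all libraries, ahead of CEACAM1, with 0.524 TPM in HCT116-WT and 0.520 TPM in HCT116-CD276KO cells. In the goblet cell list the highest were FCGBP, a mucin-like binding protein of mucus, at 0.448 and 0.360 TPM, and CREB3L1, a secretory transcription factor, at 0.522 and 0.210 TPM, each with overlapping groups. KRT20, a keratin of mature colonocytes, stood at 0.728 and 0.478 TPM with overlapping groups.

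**Figure D1:**
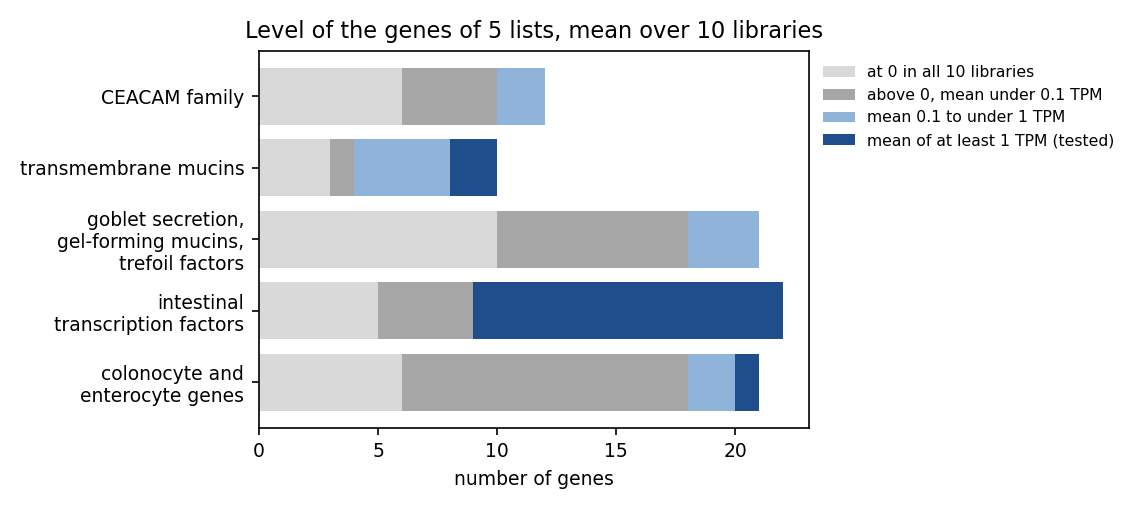
Number of genes of each list by their mean TPM over the 10 libraries. The dark blue bars, genes that averaged 1 TPM or more, hold 13 of 22 intestinal transcription factors but 1 of 21 differentiation genes and none of the CEACAM or goblet cell genes.

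Of the 16 genes tested in the 5 lists, 4 were called by limma, all 4 lower in HCT116-CD276KO cells, where 4.09% of all genes tested were called as lower. The median log2 fold change of the 16 was -0.34, against -0.09 for all genes tested. The 4 were the transcription factors HNF4A, ELF3 and SOX9 and the carbonic anhydrase gene CA2. None of the 4 is among the 10 colonic genes.

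HNF4A, a nuclear receptor that drives enterocyte and hepatocyte gene expression, fell the most of the 16. It lies on chromosome 20 and stood at 3.82, 3.55, 3.49, 3.38 and 3.33 TPM in the HCT116-WT cultures and at 0.85, 0.65, 0.55, 0.72 and 0.58 TPM in the HCT116-CD276KO cultures. The groups did not overlap, and 19.1% of the HCT116-WT mean was left. On log2(TPM + 1) the fold change was -1.44 with a standard error of 0.09, and limma gave an adjusted p of 3.92e-06, while the log2 ratio of the mean TPM was -2.39. It was the only one of the 16 genes to change at least 2-fold with an adjusted p-value under 0.05, as 0.486% of all genes tested did.

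The change of HNF4A was set against that of CDX2 within each library, a comparison chosen after the values were seen. The difference of log2(TPM + 1), HNF4A minus CDX2, ran from -1.56 to -0.85 in HCT116-WT libraries and from -2.77 to -2.47 in HCT116-CD276KO libraries. The means differed by -1.50. Exact permutation gave a two-sided p of 0.00794, but the pair was picked for its difference, so no conclusion is drawn from this p-value. With 1 library left out in turn the difference lay between -1.61 and -1.44.

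ELF3 and SOX9 fell by less. ELF3, an epithelial ETS factor of intestinal differentiation, averaged 65.7 ± 5.58 TPM (SD, n = 5) in HCT116-WT and 45.9 ± 4.42 TPM (SD, n = 5) in HCT116-CD276KO cells, and its log2 fold change was -0.51 ± 0.08 (SE), at a limma adjusted p of 0.00417. SOX9, a factor of crypt progenitor cells, averaged 53.3 ± 2.06 TPM (SD, n = 5) in HCT116-WT and 38.2 ± 5.29 TPM (SD, n = 5) in HCT116-CD276KO cells, and its log2 fold change was -0.48 ± 0.09 (SE), at a limma adjusted p of 0.0095. In neither did the groups overlap, which held for 7.61% of all genes tested. The other 10 tested factors were not called. Among them was FOXA1, a pioneer factor of endoderm, with a log2 fold change of -0.34 (limma adjusted p 0.164).

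KLF5, a zinc finger factor of proliferating crypt cells, had the highest mean of the list and the widest spread. It ran from 30.6 to 149.8 TPM in HCT116-WT libraries and from 24.5 to 72.7 TPM in HCT116-CD276KO libraries. Its log2 fold change of -0.35 had a 95% interval from -1.27 to 0.57, and without HCT116-WT replicate 3, the highest library, it was 0.00. HNF4G, the relative of HNF4A, stood at -0.36 on the log2 scale (limma adjusted p 0.230). The hindgut factors HOXA13 and HOXB13 stood at -0.03 and 0.02, GATA6 at 0.02 and FOXA3 at 0.09, each with an adjusted p-value of 0.673 or more.

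CA2, the cytosolic carbonic anhydrase of colonocytes, was the only differentiation gene to reach 1 TPM. It fell without overlap, with means of 30.3 ± 1.21 TPM (SD, n = 5) in HCT116-WT and 20.7 ± 2.71 TPM (SD, n = 5) in HCT116-CD276KO cells, and its log2 fold change was -0.53 ± 0.08 (SE), at a limma adjusted p of 0.00373. The transmembrane mucin with the highest level was MUC3A. Its values lay between 13.9 and 19.5 TPM in HCT116-WT libraries and between 8.14 and 13.3 TPM in HCT116-CD276KO libraries, without overlap. The log2 fold change of MUC3A was -0.47 and its adjusted p-value from limma 0.0674, so it was not called. With the trends of transcript length and GC content removed from each library it stood at -0.26 (limma adjusted p 0.155). MUC3A has a near-identical neighbour, MUC3B, and its reads could be split between the copies. Not every transmembrane mucin was lower in HCT116-CD276KO cells. MUC4 averaged 0.27 TPM in HCT116-WT and 0.45 TPM in HCT116-CD276KO cells. MUC12 averaged 0.082 and 0.132 TPM, and MUC20 0.268 and 0.206 TPM. These mucins were under the filter, with overlapping groups. With all genes above 0 TPM in the fit, MUC4 had an adjusted p-value from limma of 0.149.

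**Figure D2:**
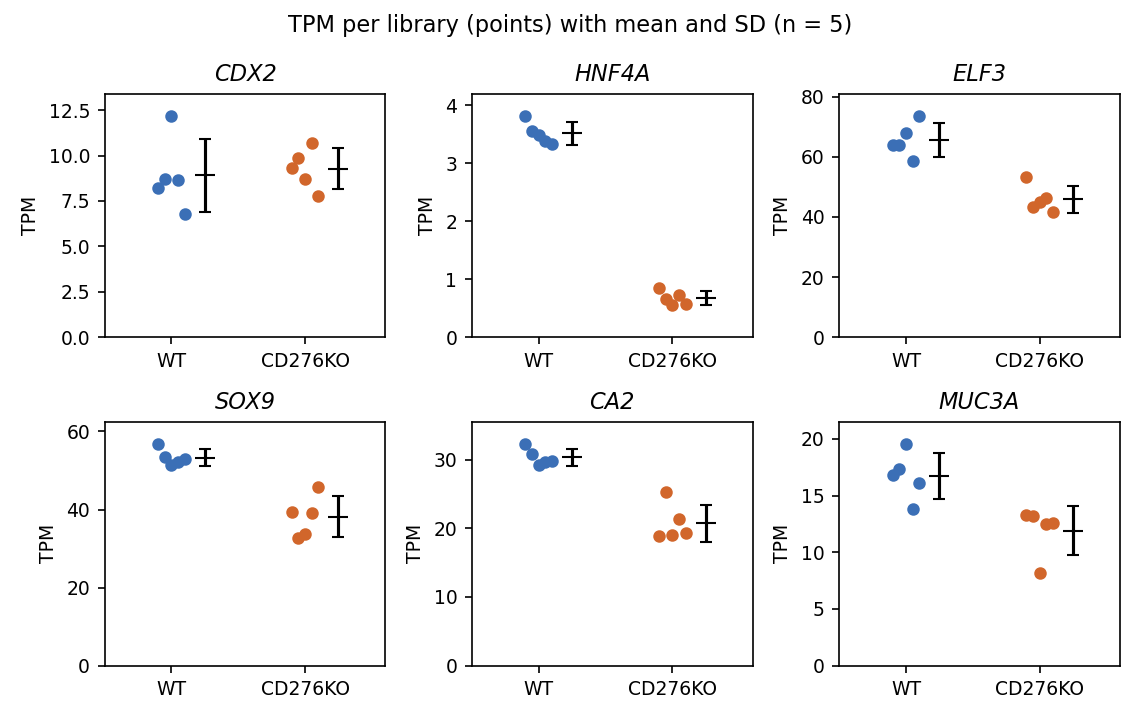
TPM in each library of CDX2, HNF4A, ELF3, SOX9, CA2 and MUC3A, with the mean and SD of 5 libraries beside the points, on axes that start at 0. CDX2 overlaps between the groups and the other 5 genes do not.

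The cells kept the markers of an epithelium. EPCAM, CDH1, KRT8, KRT18 and KRT19 were all above 10 TPM in every library. All 5 were called as lower in HCT116-CD276KO cells, where 4.09% of all genes tested were called as lower. CDH1 stood at 20.4 against 42.7 TPM, with a log2 fold change of -1.07 (limma adjusted p 0.00311). Their summed level ran from 4170 to 4940 TPM in HCT116-WT and from 3310 to 3770 TPM in HCT116-CD276KO libraries. After median-of-ratios scaling KRT8, KRT18, KRT19 and EPCAM were lower, at -0.32, -0.30, -0.19 and -0.26 on the log2 scale, but no longer called (limma adjusted p from 0.0523 to 0.252). After quantile normalization KRT8, KRT18 and KRT19 were called, at -0.51, -0.40 and -0.38, and EPCAM, at -0.32, was not (limma adjusted p 0.0524). CDH1 stayed called after median-of-ratios scaling, at -0.97 (limma adjusted p 0.00194), and after quantile normalization, at -0.95 (limma adjusted p 0.00143). The markers of gastric, leukocyte, endothelial and liver cells summed to at most 0.59 TPM per cell type in any library, and of 5 fibroblast markers only COL1A1 was tested, at 7.31 and 5.57 TPM with overlapping groups. Libraries also differed in a trend of their values with transcript length, with Spearman correlations over genes from -0.204 to 0.182. With this trend and that of GC content removed, HNF4A, ELF3, SOX9 and CA2 remained called, with log2 fold changes of -1.36, -0.46, -0.31 and -0.45, and CDX2 stood at 0.16 (limma adjusted p 0.409).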

How the data were processed

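RNA of 10 HCT116 cultures, 5 per group, was sequenced as single reads from polyadenylated, strand-specific libraries. The authors mapped the reads to hg38 with STAR 2.5.2b, quantified genes of Ensembl 86 with RSEM 1.3.0 and featureCounts 1.5.1, and deposited TPM. Which program gave the TPM is not given in the sources used here, and TPM do not keep the depth of a library.

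Symbols and positions came from GENCODE 44 on the same assembly. Genes that averaged at least 1 TPM were fitted on log2(TPM + 1) with limma 3.58.1 in R 4.3.3, using all 10 libraries, a variance trend and Benjamini-Hochberg adjustment. Fold changes on this scale understate those of low genes. The p-values set the difference between the groups against the spread between cultures. As all HCT116-CD276KO cultures came from a single clone, the p-values take no account of variation between clones. The fit was tested on simulated data in which some genes were changed by at least 2-fold. Smaller changes, like those of ELF3, SOX9 and CA2, and changes of genes as low as MUC1 and HNF4A were not simulated. Exact permutation tests used scipy 1.17.1, and sequences were aligned with biopython 1.88.

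The 10 genes and the lists were chosen with earlier results of these data known. Values of 2 of the tested transcription factors are not reported here, and both are in the counts. Named from each list were the genes called and the 2 with the highest mean, and for CDX2 and MUC1 the 3 most correlated genes. Further transcription factors, transmembrane mucins and neighbouring genes were named after their values were seen. Alternatives were a pseudocount of 0.1, no filter, a mean of at least 5 TPM, median-of-ratios scaling, quantile normalization, robust variances, the replicate number as a block, removal of each library's length and GC trend (local regression, span 0.3) and omission of each library.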

Additional observations from a re-analysis of the deposited data

Results flagged for a closer look

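Looked at were the colonic genes, the genes named by rule from the 5 lists, the transcription factors plotted, CD276 and the 5 epithelial markers, leaving out groups in which all values were equal. In 8 of 54 groups of 5 values the highest or lowest value lay apart from the rest by more than 0.71 of the range of its group. For independent, normally distributed values chance passes this limit in about 1 of 20 groups, or 2.7 of 54. TPM near the smallest step of the table are not such values, so this number is only a rough guide. CEACAM1 reached 1.01 TPM in HCT116-WT replicate 1, against 0.3 to 0.45 TPM in the rest of its group, which is 0.789 of the range. CREB3L1 was also highest in HCT116-WT replicate 1, at 1.06 TPM against 0.29 to 0.48 TPM (0.753 of the range). CEACAM5 in HCT116-CD276KO replicate 4 and CEACAM6 in HCT116-WT replicate 5 were at 0.01 TPM beside 0 elsewhere in their groups (1, the whole range), which is the smallest step of the table. MUC3A was lowest in HCT116-CD276KO replicate 3, at 8.14 TPM against 12.5 to 13.3 TPM (0.839 of the range). FCGBP was highest in HCT116-CD276KO replicate 5, at 0.72 TPM against 0.2 to 0.33 TPM (0.75 of the range). KRT8 in HCT116-CD276KO replicate 2 (1747 TPM, 0.788 of the range) and KRT19 in HCT116-WT replicate 3 (1481 TPM, 0.737 of the range) were each the highest of their group.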

How the results depend on the processing

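No colonic gene that could be fitted was called under any of the 19 alternatives: CDX2 and MUC1 in most, CDX2 alone among genes with at least 5 TPM, and also CEACAM1, CEACAM5, CEACAM6 and MUC13 with no filter. TFF1, TFF3, AGR2 and CDX1 were in no fit. Of the 5 lists 4 genes were called, or 3 among genes with at least 5 TPM, where HNF4A was not tested. MUC1 stayed between -0.13 and -0.01. CDX2 ran from -0.02 to 0.20, with adjusted p-values from 0.239 to 0.957, and was below 0 only without HCT116-WT replicate 5; with 1 library left out it lay between -0.02 and 0.18. KLF5 lay between -0.56 and 0.00 with 1 library left out, the latter without HCT116-WT replicate 3. HNF4A, ELF3, SOX9 and CA2 were called in every fit in which they were tested, and the log2 fold change of HNF4A was -2.39 as a ratio of means without a pseudocount, as a pseudocount shrinks changes at low TPM. KRT19 lost its call in 12 of the 19 alternatives and EPCAM in 13 of them.

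The number of genes called, 662, was 378 with the replicate block and 1237 after the length and GC correction. With 1 library left out it ranged from 340 to 886: 343, 370, 422 and 340 without HCT116-WT replicates 1, 2, 4 and 5, and, in the other group, 404 without replicate 3 and 381 without replicate 4. The cause of these shifts was not tested. Of the genes called 106 were higher, against 191 of 580 after median-of-ratios scaling, 253 of 638 after quantile normalization and 527 of 1237 with length and GC corrected. Libraries with the same replicate number did not deviate together, with correlations from -0.181 to 0.119 over genes, and 1 of 10 libraries correlated best with its own number, so the number was not taken as a pairing. The block changed no call of a gene of the 5 lists, and EPCAM and KRT19 were not called with it (0.0799 and 0.101).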
